A study of Mus musculus with 10 samples.

Results

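The expression of 44 cell cycle genes was followed through the cell lineages of the developing mouse lower jaw and incisor. The genes were given as a list and were found by symbol among the 32285 genes of the count matrices, where each matched 1 row. They fall into 20 genes of the G1/S transition and S phase (*Mcm2* to *Mcm7*, *Pcna*, *Rrm1*, *Rrm2*, *Tyms*, *Gins2*, *Cdc6*, *Cdc45*, *Uhrf1*, *Slbp*, *Ccne1*, *Ccne2*, *Hells*, *Dtl* and *Pclaf*) and 24 genes of G2 and mitosis (*Mki67*, *Top2a*, *Cdk1*, *Birc5*, *Ccna2*, *Ccnb1*, *Ccnb2*, *Ube2c*, *Cenpa*, *Cenpe*, *Cenpf*, *Tpx2*, *Nusap1*, *Hmmr*, *Aurka*, *Aurkb*, *Bub1*, *Bub1b*, *Plk1*, *Kif11*, *Kif23*, *Cdc20*, *Spc25* and *Ckap2l*). Droplet-based single-cell RNA sequencing was carried out on wild type embryos without any treatment. Whole mandibles were taken at E11.5 (E, embryonic day), when tooth formation starts, and lower incisor buds were dissected at the later stages E14.5 and E16.5. All samples carry the single tissue label developing incisor, although the E11.5 tissue was the entire mandible according to the study's methods. The labels list 4, 4 and 2 samples for the 3 stages, but each stage has only 1 matrix and no barcode could be assigned to a sample. Whether a matrix holds cells of all samples listed for its stage could not be told. Each stage is therefore 1 sample here, no difference between stages or lineages was tested, and every interval below is an exact 95% interval that covers counting error only. Stage, dissected tissue and library cannot be told apart.

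A dividing cell first licenses its replication origins with the Mcm2 to Mcm7 helicase, then copies its DNA behind the sliding clamp Pcna with nucleotides supplied by ribonucleotide reductase (*Rrm1*, *Rrm2*) and thymidylate synthase (*Tyms*), and later condenses and separates its chromosomes under the control of Cdk1 with cyclins A2, B1 and B2. Transcription of the first group is driven by E2F factors near the G1/S transition, and that of the second by the B-Myb, MuvB and FoxM1 complex in G2. In the tooth germ, epithelial and mesenchymal cells proliferate together during budding and growth, while cells of the enamel knot and differentiating osteoblasts leave the cycle.

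After filtering, 6573, 6091 and 4511 cells of the 3 stages in order of age remained, with median depths of 5664, 3471 and 6260 unique molecular identifiers (UMIs, one per captured transcript) per cell. Because depth differed, each cell was thinned to 2000 UMIs and levels are CPM, the UMIs of a gene scaled to a fixed total of UMIs and summed over the cells of a lineage. Clusters were named by markers as mesenchyme-like, epithelium-like, endothelium-like, immune-like, erythroid-like or muscle-like. In these 6 kinds of group at least 8 markers of the list that gave the name were detected. Any UMI in a group counted as detection, so this is no separate check of the names. Mesenchyme-like cells at E14.5 also held all 12 epithelial markers, at a sum of 94.4 CPM against 4765 CPM for the mesenchymal markers. At E11.5, 144 cells stayed unnamed. Muscle-like cells were found at E11.5 only. No epithelium-like cluster was found at E11.5 in this clustering, although log-normalized clustering gave 13 epithelium-like cells and assignment by marker UMIs gave 7, and 9 of 120 muscle-like cells held a UMI of the epithelial gene *Epcam*. The Y-linked gene *Ddx3y* had 0 UMIs over all barcodes at E11.5 against 588 and 720 at E14.5 and E16.5. The sex of the embryos may therefore differ between the E11.5 library and the others, and it cannot be told apart from stage. The stages shared 13, 16 and 17 barcodes pairwise. Doublet scoring called 0, 0 and 2 cells, which is too few for the caller to have worked, and the 5% of cells with the highest scores were left out as an alternative.

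Summed over the 44 genes, the level was highest at E11.5 and lower at both later stages in every lineage measured at all 3. In mesenchyme-like cells the sum stood at 7905 CPM in the E11.5 library (7852 to 7958; 5414 cells), 4822 CPM in that of E14.5 (4774 to 4871; 3934 cells) and 3356 CPM in that of E16.5 (3305 to 3407; 2490 cells). Epithelium-like cells gave 4875 CPM in the E14.5 library (4769.7 to 4982; 836 cells) and 4536 CPM in the E16.5 library (4463 to 4611; 1598 cells). Mesenchyme-like and epithelium-like cells thus had overlapping intervals at E14.5 and separate ones at E16.5. Endothelium-like cells gave 5655 CPM (5219 to 6117), 4512 CPM (4256 to 4778) and 3935 CPM (3683 to 4199.7) over the 3 stages, from 55, 129 and 115 cells. Immune-like cells gave 5590.2 CPM (5178 to 6026), 3976 CPM (3731 to 4232) and 2960.0 CPM (2502 to 3477), from 61, 124 and 25 cells. Muscle-like cells at E11.5, with 7595 CPM (7244 to 7958; 116 cells), lay close to the mesenchyme-like cells of the same library. Smaller groups lay in the same range, with 5632 CPM at E11.5 and 4059.5 CPM at E14.5 in glia and neural crest-like cells (19 and 42 cells) and 5038 CPM at E16.5 in perivascular-like cells (26 cells).

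**Figure D1:**
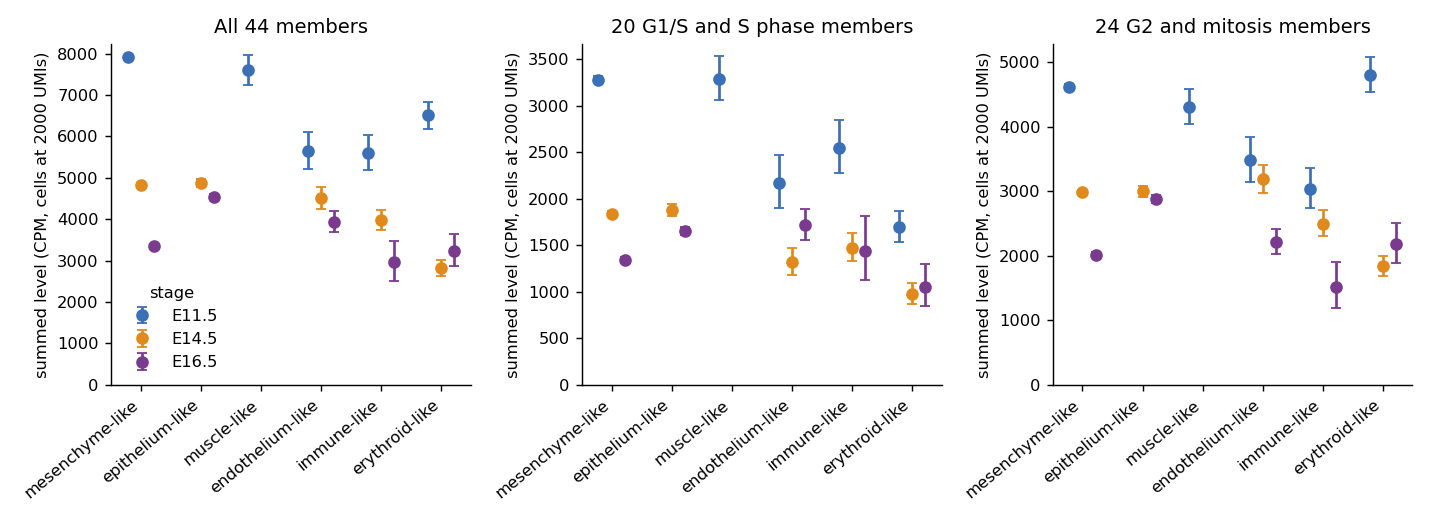
Summed level (CPM, cells thinned to 2000 UMIs) of all 44 genes, of the 20 S phase genes and of the 24 G2 and mitosis genes in each lineage, with stages in colour and bars for 95% counting intervals. Mesenchyme-like cells step down from 7905 to 4822 and 3356 CPM, while epithelium-like cells lie at 4875 and 4536 CPM.

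Both sets of genes took part. In mesenchyme-like cells the S phase genes summed to 3281, 1837 and 1339 CPM at the 3 stages, and the G2 and mitosis genes to 4623, 2985 and 2017 CPM. The log2 ratio of the summed level at E14.5 over E11.5 was -0.71 (-0.73 to -0.70) for all 44 genes, -0.84 (-0.86 to -0.81) for the S phase genes and -0.63 (-0.65 to -0.61) for the G2 and mitosis genes. From E14.5 to E16.5 it was -0.52 (-0.55 to -0.50), -0.46 (-0.50 to -0.42) and -0.57 (-0.60 to -0.53) in the same order. Without thinning, which gives more weight to cells with more UMIs, the value for E16.5 over E14.5 was -0.29.

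The stages differed in how many cells held these transcripts. A cell was counted when at least 5 of its 2000 UMIs came from the S phase genes or at least 5 from the G2 and mitosis genes, which is a range of UMIs and not a phase call. The share of such cells in mesenchyme by age was 91.8% (91.0 to 92.5), 51.1% (49.5 to 52.6) and 32.2% (30.4 to 34.1). It was 63.0% (59.7 to 66.3) and 53.3% (50.8 to 55.8) in the epithelium-like cells of E14.5 and of E16.5. At this threshold epithelium-like cells held the larger share at both stages, with intervals apart from those of mesenchyme-like cells. With at least 8 UMIs the E14.5 intervals overlapped, at 42.3% (39.0 to 45.8) for epithelium-like and 39.1% (37.6 to 40.6) for mesenchyme-like cells, while at E16.5 they were 38.0% (35.7 to 40.5) and 23.7% (22.04 to 25.4). The median depths before thinning were 5692, 3247 and 5920.0 UMIs in mesenchyme-like cells and 4271 and 6729.5 UMIs in epithelium-like cells. Cells without a single UMI of the 44 genes made up 0.111%, 8.34% and 19.4% of mesenchyme-like cells.

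**Figure D2:**
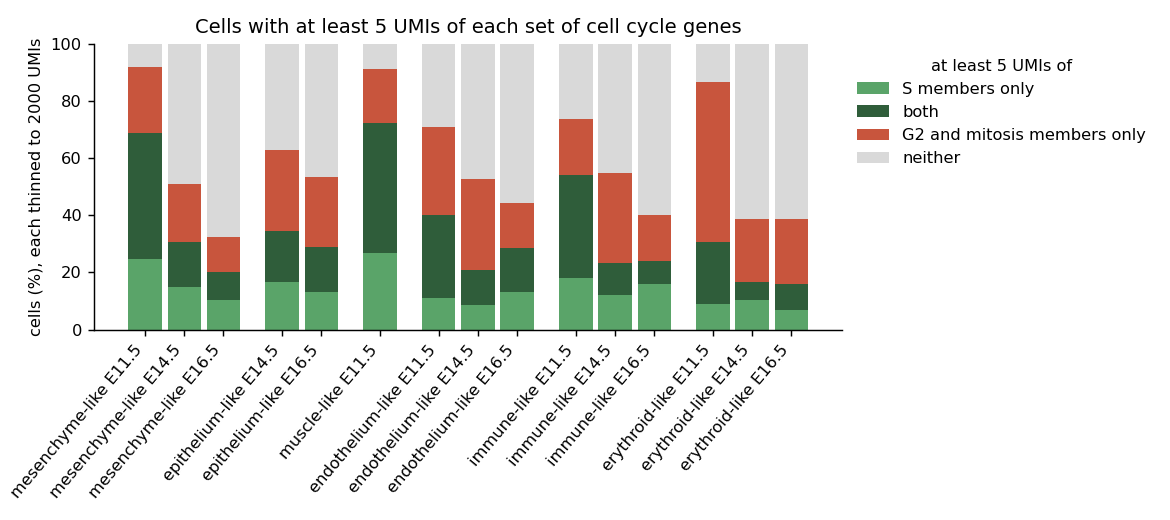
Share of cells (%, each thinned to 2000 UMIs) with at least 5 UMIs of the S phase genes only, of the G2 and mitosis genes only, of both or of neither, by lineage and stage. The grey part, cells with neither, grows in mesenchyme-like cells from 8.20% to 48.9% and 67.8%.

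Barcodes with fewer than 700 genes and at least 50% globin UMIs were used as a background. They hold mostly red cells, with globin at 88.0% of their UMIs at E14.5 and 92.0% at E16.5. Transcripts of the red cells themselves and free RNA cannot be told apart in them. At E14.5, 983 such barcodes held 487 CPM of the 44 genes and 12 of the 645 that reached 2000 UMIs (1.86%) counted as cells with cell cycle UMIs. At E16.5 the values were 462 CPM in 510 barcodes and 4 of 407 (0.983%). Their median depths were 3008 and 4468 UMIs, and the levels of every lineage lay above theirs. Their shares were lower as well, but with this much globin few of the 2000 UMIs were left to reach 5. The shares of these barcodes were therefore bound to be low, and nothing was read from them. As a share of their UMIs other than globin, however, the 44 genes made up 4071 CPM (3865 to 4285) and 5792 CPM (5448 to 6151). On that scale the E14.5 background lay below mesenchyme-like (4827), epithelium-like (4879.9), endothelium-like (4549) and erythroid-like cells (4479). Its interval held the value of immune-like cells (3982). The E16.5 interval held the value of erythroid-like cells (5722) and lay above the other lineages of its library. At E11.5 only 15 such barcodes existed, of which 3 reached 2000 UMIs, so that stage has no usable background. *Nusap1*, which binds spindle microtubules, and *Ube2c*, which serves the anaphase-promoting complex, together made up 45.6% of the members' UMIs in the E14.5 background and 62.1% in that of E16.5. In mesenchyme-like cells of E14.5, *Nusap1* made up 5.33% and *Ube2c* 5.38%.

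The list was checked by asking whether each gene went with its own set from cell to cell. For every gene in turn, the cells of the 6 lineages were sorted by the other 43 genes into those with at least 5 G2 and mitosis UMIs and fewer than 5 S phase UMIs, and those with the opposite pattern. All 24 G2 and mitosis genes were higher in the first group at each stage, with intervals above 0, where the background over all genes with at least 50 UMIs was 9.9%, 10.4% and 10.2% by stage. Their median log2 ratio was 2.0, 2.59 and 2.48. Of the 20 S phase genes, 17, 19 and 18 were lower in that group with intervals below 0, against 9.36%, 9.54% and 8.92% of all genes. The contrast was sharp for *Ccnb1*, the cyclin of mitotic entry, which at E14.5 had 208 CPM in the first group and 12.9 CPM in the second, a log2 ratio of 3.25 (2.84 to 3.62). *Ccne2*, a cyclin of S phase entry, had 18.0 and 169 CPM, a log2 ratio of -2.68 (-3.01 to -2.34). *Rrm1*, which encodes the large subunit of ribonucleotide reductase, had an interval that included 0 at each stage, with 133 and 136 CPM at E14.5 (-0.03, -0.27 to 0.21). *Pclaf*, a partner of Pcna, had log2 ratios of -0.02 (-0.11 to 0.06), -0.14 (-0.25 to -0.03) and -0.06 (-0.21 to 0.08) over the 3 stages. *Tyms* had -0.05 (-0.24 to 0.15), -0.32 (-0.55 to -0.08) and -0.72 (-1.01 to -0.41) in the same order. Apart from these intervals that included 0, each gene went with the set in which it was listed.

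**Figure D3:**
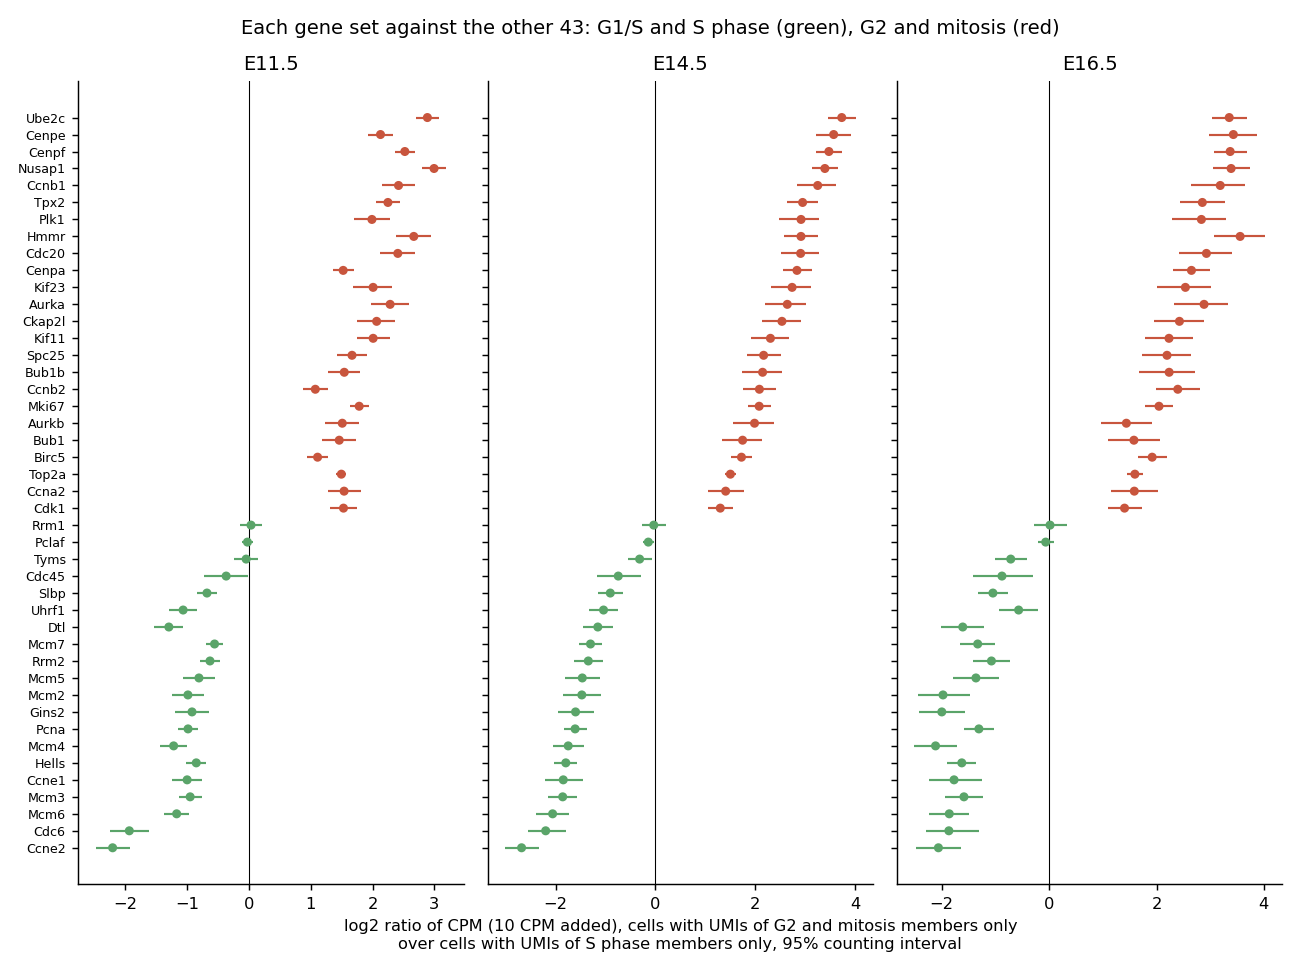
Log2 ratio of the level (10 CPM added) of each gene in cells with G2 and mitosis UMIs only over cells with S phase UMIs only, where the cells were sorted by the other 43 genes, with 95% counting intervals, for each stage. All G2 and mitosis genes lie right of 0, the S phase genes lie left of it, and *Rrm1* and *Pclaf* sit near 0.

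The promoters of the genes are shown because the sets differ in their sequence as well. RefSeq promoters of build GRCm38.p6, from 250 bases before to 50 bases after the start site, were matched by symbol for 38 of the 44 genes, 17 of the S phase and 21 of the G2 and mitosis set. For only 26 of the 38 were the first bases after the start site found near the start of an annotated transcript of the gene. The mean GC content was 59.4% in the S phase set and 58.2% in the G2 and mitosis set, against 53.6% over all genes with a promoter. *Mcm4*, *Gins2*, *Ccne2*, *Ccna2*, *Tpx2* and *Aurkb* had no entry. The following letters were searched on both strands: the E2F letters TTCGCGC or TTGGCGC or TTCCCGC, the cell cycle homology region (CHR) letters TTTGAA or TTTAAA, and the CCAAT box. The reverse complement of TTGGCGC ends in CCAA and can overlap with a CCAAT box. E2F letters were found in 10 of 17 S phase promoters (58.8%), in 4 of 21 G2 and mitosis promoters (19.0%) and in 9.20% of the 27025 genes with a promoter. CHR letters were found in 7 of 17 (41.2%), 19 of 21 (90.5%) and 30.6%. CCAAT was found in 13 of 17 (76.5%), 19 of 21 (90.5%) and 41.1%. CHR and CCAAT occurred together in 18 of 21 G2 and mitosis promoters, 6 of 17 S phase promoters and 13.4% of all. *Bub1* had no CHR letters, *Birc5* no CCAAT, and *Nusap1* neither. These matches are descriptions of letters and not of binding.

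The promoters of 6 genes from both sets are printed as examples, 5′ to 3′ on the strand of the gene, with all matches of the E2F, CHR and CCAAT letters in capitals. They are *Mcm5* (chr8:75109259-75109558, + strand), *Rrm2* (chr12:24708004-24708303, + strand), *Uhrf1* (chr17:56303087-56303386, + strand, 1 of its 2 entries), *Cdk1* (chr10:69352863-69353162, - strand), *Ccnb2* (chr9:70421505-70421804, - strand) and *Mki67* (chr7:135716330-135716629, - strand).
Mcm5: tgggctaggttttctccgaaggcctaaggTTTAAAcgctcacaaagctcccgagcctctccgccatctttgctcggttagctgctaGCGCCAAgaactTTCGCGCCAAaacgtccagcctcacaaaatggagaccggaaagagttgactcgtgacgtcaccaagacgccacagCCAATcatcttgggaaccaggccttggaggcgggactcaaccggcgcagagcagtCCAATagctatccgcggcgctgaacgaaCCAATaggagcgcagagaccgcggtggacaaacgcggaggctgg
Rrm2: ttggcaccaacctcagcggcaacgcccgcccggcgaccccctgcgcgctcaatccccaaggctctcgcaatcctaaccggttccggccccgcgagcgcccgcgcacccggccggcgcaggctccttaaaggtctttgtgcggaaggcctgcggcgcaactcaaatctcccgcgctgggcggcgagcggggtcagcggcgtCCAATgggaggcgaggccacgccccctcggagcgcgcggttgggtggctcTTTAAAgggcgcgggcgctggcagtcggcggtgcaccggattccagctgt
Uhrf1: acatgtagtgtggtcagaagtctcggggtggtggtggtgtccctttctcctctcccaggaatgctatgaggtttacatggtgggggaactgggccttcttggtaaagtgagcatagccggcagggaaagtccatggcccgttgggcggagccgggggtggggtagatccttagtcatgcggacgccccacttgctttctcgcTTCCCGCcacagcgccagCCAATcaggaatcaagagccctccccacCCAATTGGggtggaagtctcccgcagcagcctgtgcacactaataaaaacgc
Cdk1: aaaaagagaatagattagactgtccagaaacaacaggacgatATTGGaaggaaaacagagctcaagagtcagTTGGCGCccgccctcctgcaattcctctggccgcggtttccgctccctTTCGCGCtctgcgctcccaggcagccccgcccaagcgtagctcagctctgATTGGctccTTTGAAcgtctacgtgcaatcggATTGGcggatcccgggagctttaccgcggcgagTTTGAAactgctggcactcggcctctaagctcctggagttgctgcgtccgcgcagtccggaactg
Ccnb2: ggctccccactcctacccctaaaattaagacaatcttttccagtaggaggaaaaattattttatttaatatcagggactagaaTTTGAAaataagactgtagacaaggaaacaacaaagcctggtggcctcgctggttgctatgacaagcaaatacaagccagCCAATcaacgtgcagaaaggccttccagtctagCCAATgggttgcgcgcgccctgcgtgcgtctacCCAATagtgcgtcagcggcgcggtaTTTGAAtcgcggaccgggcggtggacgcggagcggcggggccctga
Mki67: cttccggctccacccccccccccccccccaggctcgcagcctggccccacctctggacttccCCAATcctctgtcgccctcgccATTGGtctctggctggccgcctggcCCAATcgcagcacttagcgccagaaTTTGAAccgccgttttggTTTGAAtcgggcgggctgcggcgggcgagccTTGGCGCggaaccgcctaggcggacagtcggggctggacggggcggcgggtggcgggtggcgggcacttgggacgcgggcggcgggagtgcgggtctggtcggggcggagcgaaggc
*Mcm5* held 3 E2F matches, 2 of which overlap, with 1 CHR match and 3 CCAAT boxes. The printed entry of *Uhrf1* held 1 E2F match and 3 CCAAT matches, 2 of which overlap on opposite strands, but no CHR letters. *Rrm2* had no E2F letters, 1 CHR match and 1 CCAAT box. *Cdk1*, *Ccnb2* and *Mki67* each held 2 CHR matches and 3 CCAAT boxes, and E2F letters occurred 2 times in *Cdk1* and 1 time in *Mki67*.

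The first comparison followed mesenchyme-like cells from the whole mandible at E11.5 to the incisor bud at E14.5. All 44 genes were lower at E14.5 with intervals below 0, where 42% of 10788 genes with at least 50 UMIs had such an interval. Values in parentheses after a pair of levels are the log2 ratio (10 CPM added to each level) and its interval. The median log2 ratio of the 44 was -0.68, against -0.11 over all genes. The log2 ratio was -1 or less, a level lower by at least 2-fold, in 7 of the 44 genes (15.9%), where 2.28% of all genes were. These 7 were *Rrm2*, *Mcm2*, *Mcm6*, *Mcm7*, *Ccne1*, *Bub1* and *Bub1b*. *Rrm2*, the small and regulated subunit of ribonucleotide reductase, stood lowest at 198 CPM at E11.5 and 62.2 CPM at E14.5, a log2 ratio of -1.52 (-1.65 to -1.40). *Bub1b*, a spindle checkpoint protein, had 98.2 and 42.2 CPM (-1.05, -1.20 to -0.90). *Mcm2*, of the replicative helicase, had 72.1 and 29.7 CPM (-1.05, -1.21 to -0.88).

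The smallest differences in that comparison belonged to genes of mitosis. *Birc5*, the survivin subunit of the chromosomal passenger complex, had 213 and 193 CPM (-0.13, -0.22 to -0.04). *Hmmr*, a spindle protein, had 108 and 97.1 CPM (-0.14, -0.26 to -0.02), and the log2 ratio without thinning was 0.0011. *Ckap2l*, another spindle protein, had 68.4 and 58.8 CPM (-0.19, -0.33 to -0.04). Among the replication genes, *Pcna* had 213 and 120.2 CPM (-0.78, -0.88 to -0.67), and *Mcm5* 70.8 and 40.7 CPM (-0.67, -0.83 to -0.52). *Ccne1*, the cyclin of the G1/S transition, had 89.3 and 38.3 CPM (-1.04, -1.20 to -0.89). The proliferation antigen *Mki67* had 333 and 182 CPM (-0.83, -0.92 to -0.75), and *Top2a*, which untangles sister chromatids, 956 and 534 CPM (-0.83, -0.88 to -0.78). *Ccnb1* had 111 and 69.0 CPM (-0.61, -0.75 to -0.48), and *Cdc20*, which activates the anaphase-promoting complex, 96.4 and 56.4 CPM (-0.68, -0.82 to -0.54).

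Between the incisor buds of E14.5 and E16.5, 36 of the 44 genes were lower in mesenchyme-like cells with intervals below 0, against 15.2% of 10233 genes, and none was lower by 2-fold, against 0.45%. The median log2 ratio was -0.44, against 0.07 over all genes. *Ccne1* stood lowest, at 38.3 CPM and 18.1 CPM (-0.78, -1.02 to -0.54). It was followed by *Spc25* of the Ndc80 kinetochore complex, with 81.2 and 45.2 CPM (-0.73, -0.91 to -0.54), and by the kinetochore motor *Cenpe*, with 133 and 77.1 CPM (-0.72, -0.87 to -0.56). *Gins2* and *Mcm6*, both parts of the active replicative helicase, lay just above 0 at 0.01 (-0.19 to 0.22) and 0.01 (-0.17 to 0.18). *Slbp*, which binds histone mRNA, followed at -0.06 (-0.20 to 0.08), with 124 and 118 CPM. The remaining fixed examples were *Rrm2* at -0.58 (-0.78 to -0.38), *Top2a* at -0.57 (-0.65 to -0.49) and *Ccnb1* at -0.66 (-0.85 to -0.46). *Mcm5* lay at -0.46 (-0.68 to -0.23), *Cdc20* at -0.33 (-0.53 to -0.13), *Pcna* at -0.25 (-0.39 to -0.10) and *Mki67* at -0.21 (-0.33 to -0.09). For *Pcna*, thinning to 1000 UMIs gave 0.039, and for *Mki67* no thinning gave 0.036, so the direction of these 2 depended on how depth was treated.

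In epithelium-like cells the members differed little between E14.5 and E16.5. The log2 ratio of the sum was -0.10 (-0.14 to -0.06), and -0.18 (-0.24 to -0.12) for the S phase genes and -0.06 (-0.11 to -0.01) for the G2 and mitosis genes. The size and direction depended on which E16.5 clusters were named. At a clustering resolution of 1.0, where 1250 in place of 1598 epithelium-like cells entered, the sum gave 0.05, and without thinning it gave -0.02. Of the members, 12 had intervals below 0 and 2 above 0, against 11.3% and 20.6% of 7877 genes, so the share below 0 was larger than the background and the share above 0 smaller. None was lower by 2-fold, where 0.419% of all genes were.

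The lower end was held by S phase genes. *Cdc6*, which loads the Mcm helicase, had 28.1 CPM at E14.5 and 14.4 CPM at E16.5 (-0.64, -1.04 to -0.23), *Ccne1* had 35.9 and 23.5 CPM (-0.46, -0.83 to -0.07), and *Mcm2* 41.3 and 27.5 CPM (-0.45, -0.81 to -0.08). At the upper end were *Ckap2l*, with 43.7 and 64.8 CPM (0.48, 0.15 to 0.81), *Ccnb2*, with 61.0 and 82.6 CPM (0.38, 0.09 to 0.68), and the mitotic kinase *Plk1*, with 36.5 and 46.6 CPM (0.28, -0.07 to 0.64). Of the fixed examples, the intervals of *Top2a* (-0.20, -0.32 to -0.08) and *Cdc20* (-0.37, -0.67 to -0.07) lay below 0. Those of *Pcna* (-0.05, -0.27 to 0.18), *Mcm5* (-0.02, -0.37 to 0.34), *Rrm2* (-0.23, -0.51 to 0.05), *Mki67* (0.08, -0.09 to 0.26) and *Ccnb1* (0.03, -0.29 to 0.35) included 0. Besides *Mki67*, *Ccnb1* and the 3 genes at the upper end, 13 others had a ratio above 0, namely *Rrm1*, *Gins2*, *Cdc45*, *Slbp*, *Ccna2*, *Cenpa*, *Nusap1*, *Hmmr*, *Aurkb*, *Bub1*, *Kif11*, *Kif23* and *Spc25*.

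**Figure D4:**
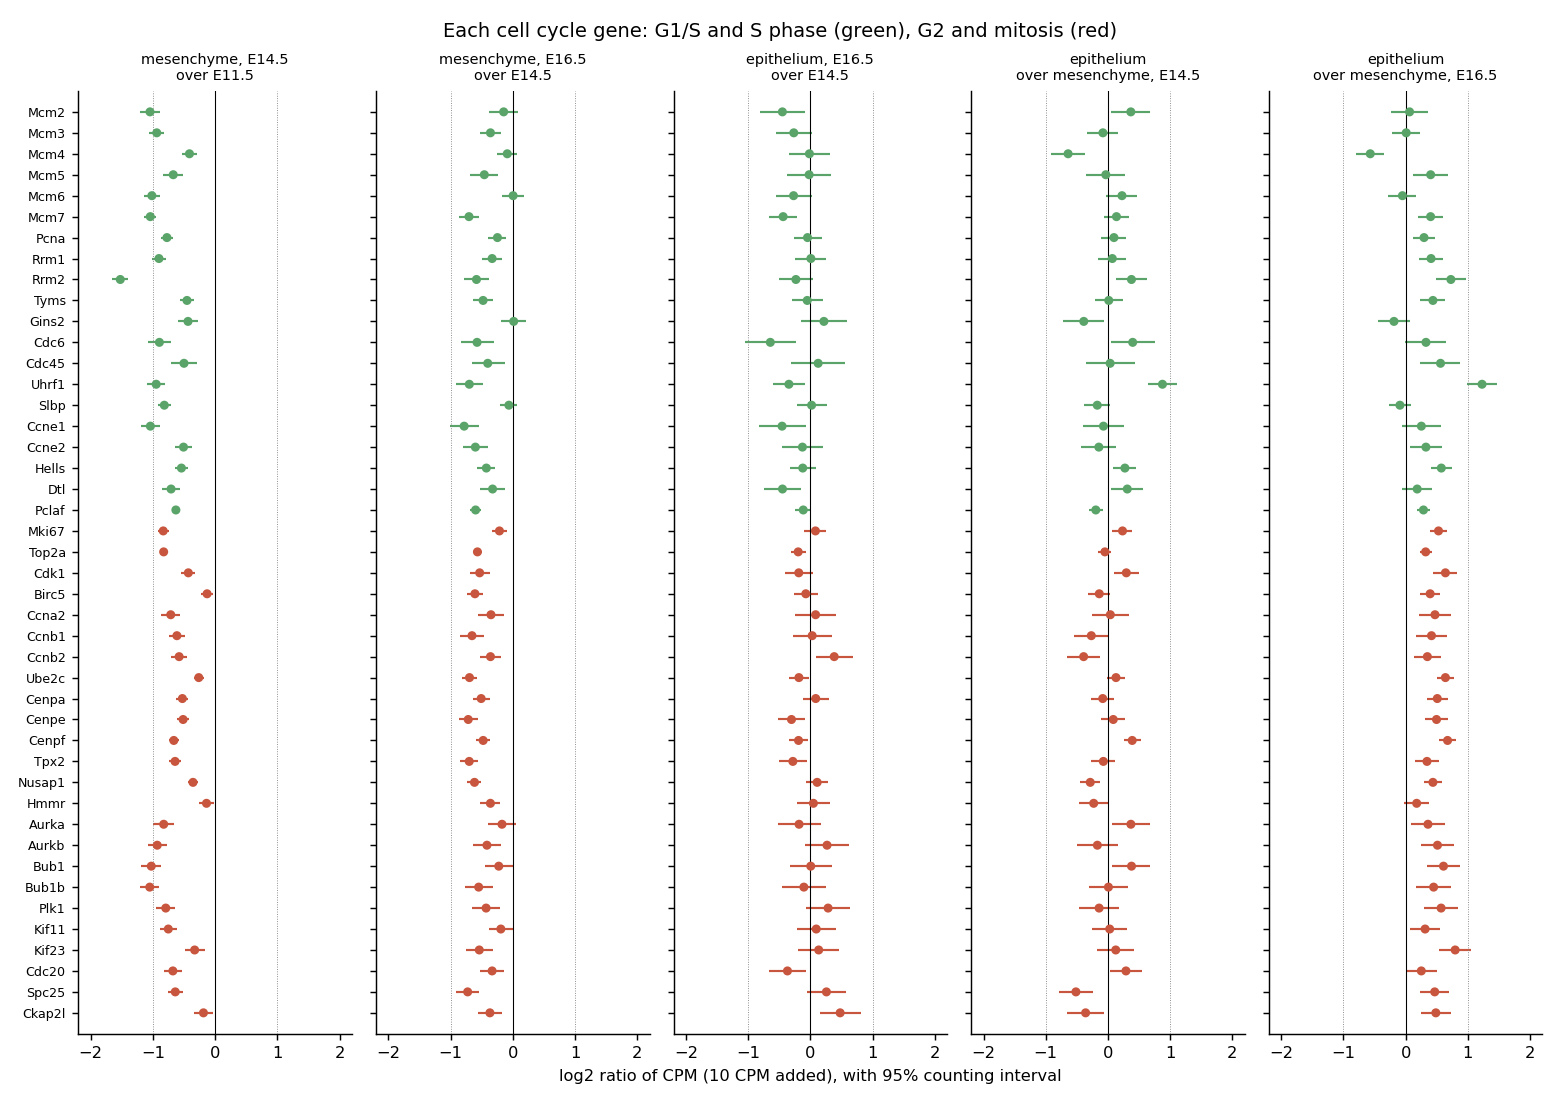
Log2 ratio of the level (CPM, 10 CPM added) of each of the 44 genes in the 5 main comparisons, with 95% counting intervals; dotted lines mark 2-fold. All 44 genes lie left of 0 in the first panel, and *Uhrf1* and *Mcm4* stand at opposite ends in both panels on epithelium over mesenchyme.

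At E14.5 the epithelium-like and mesenchyme-like cells of the incisor bud had like summed levels, with a log2 ratio of epithelium over mesenchyme of 0.02 (-0.02 to 0.05). The value was 0.16 at 1000 UMIs and -0.11 without thinning, so no direction was read from it. Single genes with intervals apart from 0 were about as frequent as among all genes: 12 of the 44 had intervals above 0 and 7 below 0, against 20.2% and 20.6% of 9442 genes, and none was higher by 2-fold, against 3.35%. *Uhrf1*, which brings the maintenance DNA methyltransferase to newly copied DNA, was highest, at 99.3 CPM in epithelium-like cells and 49.6 CPM in mesenchyme-like cells (0.88, 0.64 to 1.11). *Cdc6* (0.40, 0.04 to 0.75) and the kinetochore protein *Cenpf* (0.39, 0.25 to 0.52) came next. *Mcm4*, a subunit of the same helicase as *Mcm5*, was lowest, at 53.2 against 88.6 CPM (-0.64, -0.92 to -0.37), followed by *Spc25* (-0.52, -0.80 to -0.24) and *Ccnb2* (-0.39, -0.66 to -0.13). The fixed examples *Rrm2* (0.38, 0.13 to 0.62), *Cdc20* (0.29, 0.03 to 0.55) and *Mki67* (0.23, 0.07 to 0.39) had intervals above 0, and for *Cdc20* the value without thinning was -0.13. The intervals of *Pcna* (0.10, -0.11 to 0.30), *Mcm5* (-0.03, -0.35 to 0.28), *Ccne1* (-0.07, -0.40 to 0.25), *Top2a* (-0.05, -0.15 to 0.06) and *Ccnb1* (-0.27, -0.55 to 0.01) included 0. In all, 20 genes had a ratio below 0, which were *Mcm3*, *Mcm4*, *Mcm5*, *Gins2*, *Slbp*, *Ccne1*, *Ccne2*, *Pclaf*, *Top2a*, *Birc5*, *Ccnb1*, *Ccnb2*, *Cenpa*, *Tpx2*, *Nusap1*, *Hmmr*, *Aurkb*, *Plk1*, *Spc25* and *Ckap2l*.

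At E16.5 the sum was higher in epithelium-like cells, with a log2 ratio of 0.43 (0.40 to 0.47) and 0.17 without thinning. Both sets shared this, with 0.31 (0.26 to 0.36) for the S phase and 0.51 (0.47 to 0.55) for the G2 and mitosis genes. Of the 44 genes, 34 had intervals above 0, against 26.8% of 9624 genes, and 1 was higher by 2-fold, against 4.26%. The median log2 ratio was 0.41, against 0.04 over all genes. *Uhrf1* was again highest, with 76.0 CPM in epithelium-like and 26.7 CPM in mesenchyme-like cells (1.23, 0.98 to 1.47). *Kif23*, a motor of cytokinesis, had 54.1 and 26.9 CPM (0.80, 0.53 to 1.06), and *Rrm2* had 69.8 and 38.2 CPM (0.73, 0.49 to 0.96). *Mcm4* was again lowest and alone had an interval below 0, with 52.6 and 82.7 CPM (-0.57, -0.79 to -0.34). *Gins2* (-0.19, -0.45 to 0.07), *Slbp* (-0.09, -0.27 to 0.09) and *Mcm6* (-0.05, -0.28 to 0.17) were the other genes with a ratio below 0. The fixed examples gave 0.53 (0.39 to 0.67) for *Mki67*, 0.42 (0.17 to 0.66) for *Ccnb1* and 0.40 (0.12 to 0.68) for *Mcm5*. *Top2a* gave 0.32 (0.22 to 0.42), *Pcna* 0.30 (0.12 to 0.47), *Cdc20* 0.25 (0.01 to 0.50) and *Ccne1* 0.25 (-0.06 to 0.56). At this stage the markers of epithelium summed to 3306 CPM in epithelium-like and 219 CPM in mesenchyme-like cells, and those of mesenchyme to 359 and 5771 CPM.

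In the epithelium the 6 helicase subunits, which work as 1 ring, differed in their ratios. At E16.5 the log2 ratios over mesenchyme ran from -0.57 for *Mcm4* through -0.05 for *Mcm6*, 0.01 for *Mcm3* and 0.06 for *Mcm2* to 0.40 for *Mcm5* and 0.40 for *Mcm7*. Muscle-like cells at E11.5 had the same genes near the ends of the S phase set. *Uhrf1* had 189.7 CPM against 105 CPM in mesenchyme-like cells (0.80, 0.36 to 1.21), and *Mcm4* had 77.6 against 121 CPM (-0.58, -1.23 to 0.02), an interval that included 0, and only *Cdc6* (-1.23, -2.09 to -0.17) was lower in that set. *Aurka*, a mitotic kinase, was lowest of the 44 (-1.75, -2.61 to -0.68), at 12.9 CPM in muscle-like cells. The values of *Aurka* and *Cdc6* rest on few UMIs in the 116 muscle-like cells, so their rank among the members is uncertain. Across muscle-like cells as a whole, the sum differed from mesenchyme by a log2 ratio of -0.06 (-0.13 to 0.01).

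Erythroid-like cells stood apart in the balance of the sets at E11.5. Their sum over the 3 stages was 6504 CPM (6187 to 6834; 121 cells), 2814 CPM (2624 to 3014; 145 cells) and 3239 CPM (2874 to 3637; 44 cells). With at least 200 genes and no mitochondrial limit it was 7361, 1266 and 876 CPM, from 545, 476 and 315 cells. The later levels and the direction from E14.5 to E16.5 thus depended on the filter. Globin transcripts took 34.5%, 37.2% and 43.4% of their UMIs, and as a share of the other UMIs the sums were 9923, 4479 and 5722 CPM. Against mesenchyme-like cells at E11.5 the log2 ratio of the sum was -0.28 (-0.35 to -0.21), and 0.33 when globin was left out of the totals, so its direction rested on the denominator. The ratio of the S phase to the G2 and mitosis set does not depend on it. In log2 it was -1.50 in erythroid-like cells (-1.67 to -1.34) and -0.49 in mesenchyme-like cells (-0.51 to -0.47) at E11.5. At E14.5 it was -0.91 (-1.13 to -0.70) and -0.70 (-0.73 to -0.67), and endothelium-like cells had the lower value of -1.27 (-1.46 to -1.09). At E16.5 it was -1.05 (-1.42 to -0.68) in erythroid-like and -0.59 (-0.64 to -0.55) in mesenchyme-like cells. Of the erythroid-like cells at E11.5, 56.2% (46.9 to 65.2) held at least 5 UMIs of the G2 and mitosis genes alone, against 23.1% (21.9 to 24.2) of mesenchyme-like cells. Unlike the ratio of the sets, this share depends on globin, which leaves fewer UMIs to reach 5 of either set. At least 5 S phase UMIs were held by 30.6% of erythroid-like cells with thinning and 69.1% without. For mesenchyme-like cells the values were 68.7% and 90.1%.

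*Mki67*, whose promoter is printed above, was highest in E11.5 erythroid-like cells relative to mesenchyme, with 975 CPM (855 to 1108) against 333 CPM (322 to 344), a log2 ratio of 1.52 (1.33 to 1.71). *Hmmr* (0.76, 0.33 to 1.17) and the kinase *Aurka* (0.56, -0.01 to 1.09) followed. *Hells*, a chromatin remodeller of replicating cells, was lowest, with 41.3 against 201 CPM (-2.04, -2.83 to -1.29), and then *Pclaf* (-1.72, -2.11 to -1.35) and *Mcm2* (-1.42, -2.30 to -0.49). Of the 44 genes, 22 had intervals below 0 and 2 above 0, against 29.5% and 2.76% of 9561 genes. The median log2 ratio of the 44 was -0.47, however, which lay above the -0.64 of all genes. The intervals were therefore not read as members being lower than other genes. Genes entered mainly through the UMIs of the 5414 mesenchyme-like cells. Low values such as those of *Hells* and *Mcm2* rest on few UMIs in the 121 erythroid-like cells. At E14.5 *Mki67* had 121 CPM in erythroid-like cells. Markers of other lineages were also present in these clusters, where mesenchymal markers summed to 492, 2145 and 1341 CPM and epithelial markers to 4, 407 and 898 CPM over the 3 stages, and their part in the values was not tested.

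In endothelium-like cells the balance of the sets differed by stage. The S phase genes summed to 2173 CPM (1906 to 2466), 1322 CPM (1185 to 1469.7) and 1717 CPM (1552 to 1895) by stage. The G2 and mitosis genes gave 3482 CPM (3142 to 3849), 3189.9 CPM (2976 to 3416) and 2217 CPM (2029 to 2418). The log2 ratio at E16.5 over E14.5 was therefore 0.38 (0.17 to 0.59) for the S phase set and -0.52 (-0.69 to -0.36) for the other set. The first of these did not hold when cells were thinned to 1000 UMIs, where it was -0.027. In immune-like cells the E14.5 over E11.5 ratio was -0.79 (-1.01 to -0.57) for the S phase genes and -0.28 (-0.47 to -0.09) for the G2 and mitosis genes.

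Within mesenchyme the clusters of E14.5 and E16.5 differed among themselves. Clusters were built without the 44 genes and a wider list of cell cycle genes, but at E14.5 a cluster led by histone genes still gathered 541 cells, so the clusters were also built without histone genes and without any variable gene with a Pearson r of at least 0.1 with the summed members over cells (an alternative chosen after the data were seen). On that basis, 5 clusters at E11.5 ran from 7373 CPM (7224 to 7523) to 8767 CPM (8644 to 8893), the upper end being led by *Emx2* and *Nr2f1*. At E14.5 the lowest cluster was led by *Osr1* and *Ebf2*, with 2667 CPM (2559.8 to 2778) and 20.6% of cells with cell cycle UMIs. The cluster led by *Ibsp* and *Alpl*, genes of mineralising cells, had 3708 CPM (3640.2 to 3777) and 31.4%. The cluster led by *Crym* and *Egr3* had 6419.9 CPM (6322 to 6519) and 81.0%. A cluster of 82 cells, led by *Tril* and *Tmem132c*, had 9762 CPM (8839.7 to 10754), from the 21 cells that reached 2000 UMIs. At E16.5 the range was from 1714 CPM (1629.9 to 1800.3) in a cluster led by *Sfrp4* and *Pdzrn4*, where 11.8% of cells counted, to 5071 CPM (4961 to 5184) in one led by *Smpd3* and *Plac8*, where 56.2% did. The main clustering kept both histone genes and the other genes correlated with the members. There the *Ibsp* and *Alpl* cluster at E14.5 had 1620.0 CPM and 14.1%, beside 11716 CPM in the cluster led by histone genes. Its mesenchyme-like clusters at E16.5 ran from 568 CPM to 8705 CPM. In the alternative clustering, 8 clusters at E16.5 held cells that were mostly epithelium-like in the main clustering. Of these, 5 were named epithelium-like again and 3 stayed unnamed. Their levels ran from 3163 CPM (2978 to 3356), in a cluster led by *Krt17* and *Krt5*, to 5976 CPM (5615 to 6356), in one led by the signal *Shh*. Epithelium-like cells of E14.5 formed 1 cluster.

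**Figure D5:**
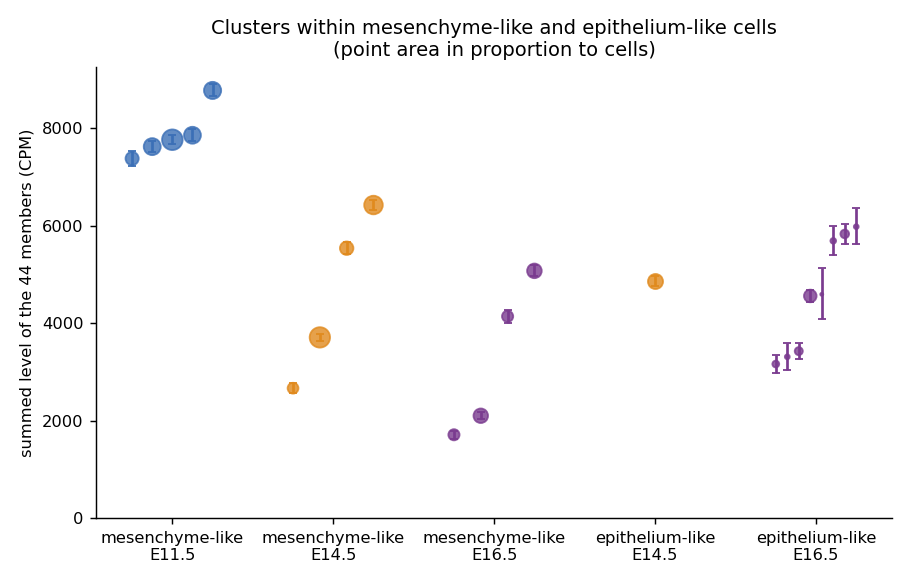
Summed level (CPM) of the 44 genes in each cluster of mesenchyme-like and epithelium-like cells with at least 25 cells at 2000 UMIs, by the lineage that most of their cells had in the main clustering, clustered without the members, histone genes and genes correlated with the members, with point area in proportion to cells and bars for 95% counting intervals. E14.5 mesenchyme-like clusters span 2667 to 6419.9 CPM and those of E16.5 1714 to 5071 CPM.

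A list of 51 regulators of the cycle (G1 cyclins and their kinases, kinase inhibitors, E2F and pocket proteins, the B-Myb and MuvB complex, licensing and checkpoint factors, and antiproliferative genes) was read for differences of 2-fold. In mesenchyme at E14.5 over E11.5, 2 of the 49 measured regulators were higher and 3 lower by that much, where 3.57% of all genes were higher and 2.28% lower. *Ccnd1*, cyclin D1 of the G1 phase, had 350.3 CPM at E11.5 and 30.4 CPM at E14.5 (-3.16, -3.30 to -3.01), a larger difference than that of any of the 44 genes. *Gas1*, a growth arrest gene that also acts in Hedgehog reception, had 215 and 73.3 CPM (-1.43, -1.55 to -1.31), and *E2f3* 182 and 65.2 CPM (-1.35, -1.48 to -1.22). The antiproliferative genes *Btg2* and *Btg1* were higher, at 1.40 (1.22 to 1.57) and 1.01 (0.92 to 1.09). In mesenchyme at E16.5 over E14.5 the kinase inhibitor *Cdkn1a* (p21) alone passed 2-fold among 47, against 1.5% of all genes higher by that much, with 8.13 and 48.8 CPM (1.70, 1.47 to 1.91). None of 42 did so in epithelium between these stages, against 1.9% of all genes higher and 0.419% lower.

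Between the lineages, the same 4 regulators passed 2-fold in the E14.5 library (of 47) and in that of E16.5 (of 46), 2 of them higher and 2 lower in epithelium-like cells each time. These counts lie near the shares of all genes, which were 3.35% higher and 5.23% lower at the first stage and 4.26% and 6.08% at the second. *Cdkn1a* had 85.5 CPM in epithelium-like and 8.13 CPM in mesenchyme-like cells at E14.5 (2.40, 2.13 to 2.65), and 117 and 48.8 CPM at E16.5 (1.11, 0.90 to 1.31). *Ccnd1* was higher in epithelium-like cells as well, at 1.67 (1.43 to 1.90) and 1.13 (0.95 to 1.32). *Cdkn1c* (p57), an imprinted kinase inhibitor, was lower, with 239 against 861 CPM (-1.81, -1.95 to -1.67) and 147 against 453 CPM (-1.56, -1.70 to -1.42). *Gas1* was also lower, at -2.38 (-2.71 to -1.98) and -2.36 (-2.59 to -2.07). The cyclin *Ccnd1* and the inhibitor *Cdkn1a* were thus higher in epithelium-like cells at both stages, while the more abundant inhibitor *Cdkn1c* was lower. The summed cell cycle levels of the 2 lineages were alike at E14.5 and higher in epithelium-like cells at E16.5.

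Outside the list, the genes whose level was most like the sum of the 44 were *Serbp1*, *Acp1*, *Wbp11*, *Ran*, *Ezh2*, *Meis2*, *Clspn*, *Gm42418*, *Celf1* and *Tacc3*, by Pearson's r of log2 levels over 15 groups of stage and lineage among 3085 genes that reached 100 CPM in a group. The coefficient was 0.94 for *Serbp1*, an mRNA-binding protein, 0.88 for *Ran*, the GTPase of nuclear transport and spindle assembly, 0.88 for *Ezh2*, a histone methyltransferase, and 0.87 for the last of them, *Tacc3*, a spindle protein. The 15 groups come from 3 libraries and share their depth and free RNA, so the coefficients are a description. The erythroid-like groups among them held 34.5%, 37.2% and 43.4% globin UMIs over the 3 stages, which lowers the CPM of all other genes together. The part of this in the coefficients was not tested.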

How the data were processed

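Droplet libraries (Chromium 3' v3) of collagenase-dissociated tissue were sequenced by the authors. The deposited files hold UMI counts per gene and cell, which the authors made with Cell Ranger 4.0.0 on mm10 per the labels, 1 matrix for each stage. Barcodes under 700 genes or over 20% mitochondrial UMIs were dropped. Each stage was normalized with SCTransform (Seurat 5.3.0, sctransform 0.4.2, R 4.3.3) and clustered on 2000 variable genes, without cell cycle genes, and 20 principal components (Leiden resolution 0.4, leidenbase 0.1.32). A cluster was named by a rule set after the data were seen. It used the mean log2 level of each marker list relative to the median cluster and, for mesenchyme, the summed level of its markers. Clusters with close scores for several lineages were first split by a further Leiden clustering of log-normalized counts (scanpy). The endothelium-like, immune-like and glia and neural crest-like cells of E11.5 and the perivascular-like cells of E16.5 came from such splits. Doublets were scored with Scrublet (scanpy 1.11.5). Cells were then thinned to 2000 UMIs, so shallower cells were left out. Ratios are log2 with 10 CPM added for single genes. Intervals are exact 95% Poisson, conditional binomial or Clopper-Pearson intervals (scipy 1.17.1) and cover counting error only. With 1 matrix per stage no test was made. The statistics were tested on simulated data.

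Named in each main comparison are *Pcna*, *Mcm5*, *Rrm2*, *Ccne1*, *Mki67*, *Top2a*, *Ccnb1* and *Cdc20*, the top 3 and bottom 3 genes by ratio of those that reached 50 UMIs, genes whose sign was opposite to that of the sum, regulators past 2-fold and the 10 genes most like the sum. The genes, marker lists and regulators were chosen with earlier results of these data known.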

Additional observations from a re-analysis of the deposited data

How the results depend on the processing

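The 5 summed log2 ratios of the main comparisons were computed under 12 alternatives, 2 of them chosen after seeing the data. Of the values, 41 were close to the main one, 18 were counted as moved and 1 as reversed. Those counted as moved include epithelium over mesenchyme at E14.5 without thinning and under the stricter filter. There the sign changed too, from a main value whose interval included 0. In the order mesenchyme E14.5 over E11.5, mesenchyme E16.5 over E14.5, epithelium E16.5 over E14.5, epithelium over mesenchyme at E14.5 and the same at E16.5, the values without thinning were -0.61, -0.29, -0.017, -0.11 and 0.17, and the first 4 were -0.80, -0.41, -0.15 and 0.16 at 1000 UMIs. Under the stricter filter on cells (1000 genes, 10% mitochondrial UMIs), the mesenchyme ratios were -0.65 and -0.59 and epithelium over mesenchyme at E14.5 was -0.053. The ratios of epithelium E16.5 over E14.5 and of epithelium over mesenchyme at E16.5 were -0.012 and 0.52 with at least 200 genes, 0.051 and 0.59 at Leiden resolution 1.0, and -0.063 and 0.48 with genes correlated with the members left out of clustering. Lineages assigned by marker UMIs gave -0.74 for mesenchyme E14.5 over E11.5. The share of mesenchyme-like cells with cell cycle UMIs by stage was 97.9%, 63.8% and 41.8% with at least 3 UMIs and 73.4%, 39.1% and 23.7% with at least 8, and that of epithelium-like cells 76.6% and 63.7%, and 42.3% and 38.0%. At resolution 1.0, 1250 E16.5 epithelium-like cells entered in place of 1598.

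Other signs changed. At 1000 UMIs these were the S phase set in endothelium at E16.5 over E14.5 (-0.027), endothelium over mesenchyme at E14.5 (0.10), *Pcna* (0.039) and *Cdc45* (0.10) in mesenchyme at E16.5 over E14.5, and *Tpx2* in epithelium at E16.5 over E14.5 (0.0042). Without thinning they were the G2 and mitosis set (0.059) and *Cdc20* (0.018) in epithelium at E16.5 over E14.5, endothelium over mesenchyme at E16.5 for the sum (-0.088), the S phase set (-0.061) and the G2 and mitosis set (-0.10), *Hmmr* in mesenchyme at E14.5 over E11.5 (0.0011), *Mki67* in mesenchyme at E16.5 over E14.5 (0.036), *Aurka* (-0.021) and *Cdc20* (-0.13) in epithelium over mesenchyme at E14.5, and *Ccne2* (-0.053) and *Aurkb* (-0.012) at E16.5. With at least 200 genes they were the G2 and mitosis set in epithelium (0.032), and the sum (-0.53) and the G2 and mitosis set (-0.40) in erythroid-like cells, all at E16.5 over E14.5. At resolution 1.0 it was the G2 and mitosis set in epithelium at E16.5 over E14.5 (0.10). With globin left out they were erythroid over mesenchyme at E11.5 (0.33) and the S phase set at E16.5 (0.48). The cause was not tested.

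No paired analysis was possible because each stage is a single matrix whose barcodes could not be assigned to samples, and leaving out single samples was not run for the same reason. Depth limits genes in small groups: between stages, 6 to 17 of the 44 genes reached 50 UMIs in endothelium-like, immune-like and erythroid-like cells. Where a small group was set against mesenchyme-like cells, genes reached 50 UMIs mainly through the mesenchyme-like cells.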
